A study of Mus musculus with 4 samples.

Results

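The distal part of mouse chromosome 6 holds a cluster of pluripotency genes in which *Nanog* and the glucose transporter gene *Slc2a3* (GLUT3) are neighbours. Its members here were *Apobec1*, *Gdf3*, *Dppa3*, *Nanog* and *Slc2a3*, taken by gene symbol, and all 5 were found among the 24347 gene rows of each sample. Expression was measured by RNA-seq in embryoid bodies (EBs) at day 3. EBs are clusters of mouse embryonic stem cells (ESCs), here of strain 129/Ola, that differentiate in serum-containing medium once LIF, the cytokine that keeps them undifferentiated, is withdrawn. WT EBs were compared with EBs whose ESCs carried a CRISPR/Cas9 deletion of the promoter of *Gm11549* (promoter KO), the Nodal-induced gene that encodes the micropeptide NEMEP, a binding partner of GLUT1 and GLUT3. There were 2 samples of each genotype, numbered 1 and 2 by the labels. The promoter KO lines were grown from single sorted cells, and the study describes the samples of a genotype as biological replicates. The methods number promoter KO mutants in the same way. Neither they nor the labels say that the samples come from these mutants or from separate cultures. The p-values thus rest on the spread between these samples, whatever its source. The test used, limma, also draws each gene's variance towards a trend over all tested genes.

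In the mouse, NANOG is a homeobox transcription factor that sustains the pluripotent state, and DPPA3 (also called Stella or PGC7) marks naive pluripotent cells and the germ line, where it restrains maintenance DNA methylation by UHRF1. GDF3 is a TGF-β family ligand related to Nodal that signals through activin receptors with the coreceptor Cripto. GLUT3 is a high-affinity glucose transporter of the plasma membrane, and APOBEC1 is the cytidine deaminase that edits *Apob* mRNA.

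In the GENCODE M21 annotation of GRCm38 the members, all protein-coding, span chr6:122577792-122801640, which is 224 kb. *Apobec1* (122577792 to 122602444) and *Gdf3* (122605403 to 122610087) lie on the minus strand, *Dppa3* (122626410 to 122630272) and *Nanog* (122707489 to 122714633) on the plus strand, and *Slc2a3* (122727809 to 122801640) on the minus strand. Of the other annotated genes that start inside the span, 3 are processed pseudogenes and 1 is a small RNA, and none of these 4 has a row in the data. One of the pseudogenes, *Gm4482*, lies within *Slc2a3* on the same strand. Transcripts of *Nanog* match the pseudogene *Nanog-ps1* at 97.6% identity over 245 bases, and those of *Dppa3* match *Dppa3-ps* at 98.2% over 451 bases. Both copies are on chromosome X and neither has a row of its own, so the values of *Nanog* and *Dppa3* may include fragments of the copies. The other 3 members had 0 such copies.

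RefSeq promoter sequence was matched for 2 of the 5 members, *Nanog* and *Apobec1*, and is shown because it holds or lacks the pluripotency motif searched for. The letters searched were TTTGCAT, the core of the octamer that POU5F1 (OCT4) recognises, on either strand, in the 250 bases before the start of transcription. In the *Nanog* window the core starts 75 bases before the start and is followed, 1 base later, by ACAATG, letters of a SOX motif, and capitals mark the whole stretch. The windows are chr6:122707239-122707488 on the plus strand for *Nanog* and chr6:122602445-122602694 on the minus strand for *Apobec1* (GRCm38.p6).
Nanog: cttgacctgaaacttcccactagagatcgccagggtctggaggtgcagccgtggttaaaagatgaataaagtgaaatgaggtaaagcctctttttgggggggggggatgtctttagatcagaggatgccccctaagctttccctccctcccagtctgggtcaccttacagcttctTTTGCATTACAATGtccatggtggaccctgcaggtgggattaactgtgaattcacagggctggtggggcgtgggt
Apobec1: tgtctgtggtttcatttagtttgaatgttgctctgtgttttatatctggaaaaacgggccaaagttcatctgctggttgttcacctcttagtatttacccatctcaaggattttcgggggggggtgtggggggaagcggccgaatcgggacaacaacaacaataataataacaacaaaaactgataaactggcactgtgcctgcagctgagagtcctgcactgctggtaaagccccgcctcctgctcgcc

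The core occurs in 1355 of the 32851 RefSeq windows of this length (4.12%), counted on either strand. The core with ACAATG 1 base after it occurs in 2 windows, both of *Nanog*, which has more than 1 annotated start. Only these exact letters at this spacing, which are those of the *Nanog* window, were searched. The count therefore does not show how common such pairs of motifs are. The *Apobec1* window does not hold the core. *Gdf3*, *Dppa3* and *Slc2a3* had no entry.

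Expression is given in FPKM, which divides the fragments of a gene by transcript length and by library size, so that levels can be compared between genes. The targeted gene was checked first. *Gm11549* had 0.750 FPKM in WT 1 and 0.522 in WT 2, whereas promoter KO 1 listed it at 0 and promoter KO 2 at 0.0659, so both promoter KO samples were below both WT samples. The values of genes with 1 transcript showed what a single fragment was worth. At the main assumed fragment length, WT 1 came to about 24700000 effective fragments and WT 2 to 22000000. Promoter KO 1 came to 21800000 and promoter KO 2 to 20300000. With no length subtracted from the transcript, WT 1 came to 22800000 and WT 2 to 10500000. Promoter KO 1 then came to 9820000 and promoter KO 2 to 9220000. Lengths of 100 and 300 bases gave 18800000 to 25800000 over the samples. The fragment numbers below rest on the main length unless stated. The labels call the cells ESC-derived mesendoderm. All 9 mesendoderm markers (*T*, *Mixl1*, *Gsc*, *Eomes*, *Foxa2*, *Sox17*, *Lhx1*, *Mesp1* and *Evx1*) were detected in every sample, with summed levels of 791 and 1019.6 FPKM for WT 1 and WT 2 against 154 and 325 for promoter KO 1 and promoter KO 2, and all 9 were lower in both promoter KO samples than in either WT sample, beside 32.4% of all tested genes. Limma called 5 of the 9 at a Benjamini-Hochberg adjusted p under 0.05, all lower in promoter KO, beside 1.89% of all tested genes.

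The levels of the members kept the same order in each of the 4 samples, with *Slc2a3* highest, then *Nanog*, *Gdf3*, *Dppa3* and *Apobec1*. *Slc2a3* alone made up 63.1% and 74.5% of the summed FPKM of the cluster in WT 1 and WT 2, and 59.9% and 66.2% in promoter KO 1 and promoter KO 2. The sum was 397 FPKM for WT 1 and 492 for WT 2, against 309 for promoter KO 1 and 336 for promoter KO 2.

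**Figure D1:**
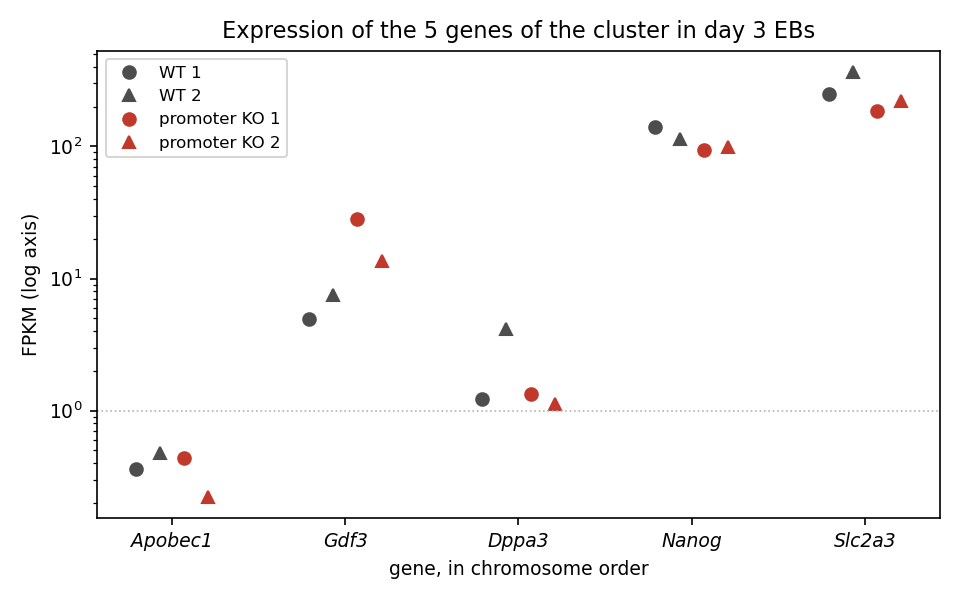
FPKM of each member in the 4 samples on a log axis, with WT in grey, promoter KO in red, and the dotted line at 1 FPKM, the level that a tested gene reached in at least 2 samples. *Gdf3* was 4.93 and 7.44 FPKM for WT against 28.1 and 13.6 for promoter KO, while *Nanog* and *Slc2a3* were lower in each promoter KO sample than in either WT sample.

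WT 1 had 139.9 FPKM of *Nanog* and WT 2 had 113, against 94.1 for promoter KO 1 and 98.7 for promoter KO 2. Both promoter KO samples were thus below both WT samples, and the WT samples differed by 1.24-fold between themselves. By rank, *Nanog* was the 667th and 835th highest of all rows in WT 1 and WT 2, and the 1051st and 969th in promoter KO 1 and promoter KO 2. The means were 127 ± 18.9 FPKM for WT and 96.4 ± 3.23 in promoter KO (SD, n = 2 each), a ratio of 0.762. With the longest annotated transcript, of 2211 bases, the 4 values amount to about 6940, 5002, 4125 and 4027 fragments, and the Poisson 95% intervals of WT 1 and WT 2 did not overlap, so the WT samples differed by more than counting error.

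WT 1 had 251 FPKM of *Slc2a3* and WT 2 had 366, against 185 for promoter KO 1 and 223 for promoter KO 2. The groups did not overlap, but WT 1 was closer to promoter KO 2 than to WT 2. The means were 309 ± 81.6 FPKM in WT and 204 ± 26.6 in promoter KO (SD, n = 2 each), a ratio of 0.661. The ratio of *Slc2a3* to *Nanog* was 1.79 in WT 1 and 3.24 in WT 2, and 1.97 and 2.26 in promoter KO 1 and promoter KO 2, so the WT samples enclosed the promoter KO samples.

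WT 1 had 4.93 FPKM of *Gdf3* and WT 2 had 7.44, against 28.1 for promoter KO 1 and 13.6 for promoter KO 2. Both promoter KO samples were above both WT samples, and promoter KO 1 was the highest of the 4. In a transcript of 2125 bases these levels amount to about 234, 315, 1177 and 532 fragments, so the spread within each genotype was again wider than counting error. The means were 6.19 ± 1.78 FPKM in WT and 20.8 ± 10.2 in promoter KO (SD, n = 2 each), a ratio of 3.37. *Nanog* exceeded *Gdf3* 28.4-fold and 15.2-fold in WT 1 and WT 2, and 3.35-fold and 7.25-fold in promoter KO 1 and promoter KO 2.

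WT 1 had 1.23 FPKM of *Dppa3* and WT 2 had 4.13, against 1.34 for promoter KO 1 and 1.12 for promoter KO 2. WT 2 stood apart, and the other 3 samples lay close together, so the groups overlapped. With the longest annotated transcript, of 833 bases, these values amount to about 19.3, 57.5, 18.5 and 14.4 fragments. The Poisson 95% interval for WT 2, from 43.2 to 73.9 fragments, lay above that of each other sample, the highest of which ended at 29.7, and such intervals cover counting error only. With no fragment length subtracted from the transcript, WT 2 came to 36.0 fragments and its interval overlapped that of WT 1. That setting also put WT 2 at 10500000 effective fragments against 22800000 for WT 1. At such unequal depths the overlap cannot show whether the levels of the samples differ.

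WT 1 had 0.363 FPKM of *Apobec1* and WT 2 had 0.476, against 0.437 for promoter KO 1 and 0.223 for promoter KO 2, or about 18.5, 21.6, 19.6 and 9.35 fragments of a transcript of 2265 bases. It stayed under 1 FPKM in all 4 samples and was not tested in the main fit. With no filter beyond a value above 0, limma gave it a log2 fold change of -0.10 ± 0.10 (SE) and a Benjamini-Hochberg adjusted p of 0.607. The interval for promoter KO 2, from 4.12 to 17.1 fragments, overlapped that of WT 1, from 10.7 to 28.4, and a difference in fragments was not tested.

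Each promoter KO sample was then set against the WT samples on the log2(FPKM + 1) scale, where adding 1 understates the change of genes with low FPKM. For *Nanog* promoter KO 1 lay at -0.41 and promoter KO 2 at -0.35 relative to the WT mean, with the WT samples at 0.15 on either side of it. For *Slc2a3* the differences were -0.71 and -0.44, with the WT samples at 0.27 on either side. For *Gdf3* they were 2.04 and 1.05, with the WT samples at 0.26 on either side. For *Dppa3* they were -0.53 and -0.68, with the WT samples at 0.60 on either side, so promoter KO 1 lay within the WT range. For *Apobec1* they were 0.02 and -0.21, with the WT samples at 0.06 on either side. In all, 8 of the 10 differences lay outside the range of the WT samples, and 7 of the 8 of the tested members did, beside 82.8% over all tested genes.

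**Figure D2:**
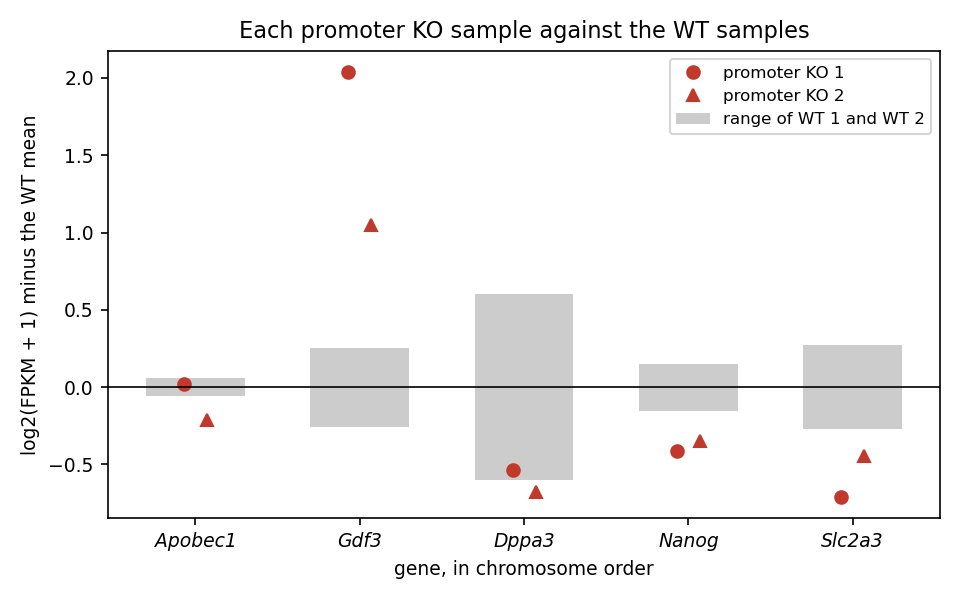
Difference of promoter KO 1 (circles) and promoter KO 2 (triangles) from the WT mean for each member, in log2(FPKM + 1), with grey bars for the range of WT 1 and WT 2. The *Gdf3* points, at 2.04 and 1.05, are the farthest above the WT range, and 8 of the 10 points lie outside it (7 of the 8 of tested members), beside 82.8% over all tested genes.

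For the test, limma was fitted to the 11941 genes that reached 1 FPKM in 2 samples or more, and genes with a Benjamini-Hochberg adjusted p under 0.05 were called. Of the 4 members tested, 0 were called, beside 427 of all tested genes (3.58%), of which 1.89% were lower and 1.68% higher in promoter KO, a balance that turned to 157 higher and 126 lower with median centring. At an unadjusted p under 0.05 limma gave 3 of the 4, *Nanog* and *Slc2a3* lower and *Gdf3* higher, beside 30.6% of all tested genes. The groups did not overlap in the same 3 members, beside 65.3% of all tested genes. A fold change below 0.5 or above 2 together with an unadjusted p under 0.05 was reached by *Gdf3* alone among the 4, beside 3.03% of all tested genes. With 4 members tested, no more than these counts can be read from them. Without WT 2, or without promoter KO 1, limma called 0 genes in the whole data set.

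*Gdf3* had a log2 fold change of 1.54 ± 0.34 (SE), with a 95% interval from 0.71 to 2.38 and an adjusted p of 0.0608 (limma, Benjamini-Hochberg). It was higher in 2 of 2 promoter KO samples. Without promoter KO 2 the value was 2.04 and limma called it (Benjamini-Hochberg adjusted p = 0.0404), and without promoter KO 1 it was 1.05 (adjusted p = 0.196), over a range of adjusted p from 0.0404 to 0.216 in the alternatives. *Nanog* had a log2 fold change of -0.38 ± 0.12 (SE), with an interval from -0.66 to -0.10 and a limma adjusted p of 0.0974 (Benjamini-Hochberg). The *Nanog* log2 fold change was -0.23 without WT 1 and -0.53 without WT 2. *Slc2a3* had -0.58 ± 0.19 (SE), with an interval from -1.04 to -0.12 and a limma adjusted p of 0.112 (Benjamini-Hochberg), and without WT 2 its log2 fold change was -0.30. *Dppa3* had -0.60 ± 0.38 (SE), with an interval from -1.53 to 0.32 and a limma adjusted p of 0.318 (Benjamini-Hochberg). That value rested on WT 2, since the *Dppa3* log2 fold change was -0.01 without WT 2 and -1.20 without WT 1, and the log2 ratio of its mean FPKM was -1.13. In these bulk samples fewer cells of a type and less RNA per cell cannot be told apart, and an exact two-sided permutation test of 2 samples against 2 cannot give a p below 0.333.

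The neighbourhood was described over the genes that start within 500 kb of the span. Of its 26 rows 9 were tested, the 4 members and 5 others, *M6pr*, *Phc1*, *Rimklb*, *Foxj2* and *Necap1*. The nearest tested gene before the span was *Rimklb*, an enzyme gene that joins glutamate to N-acetylaspartate, at 79.0 kb. It had 12.3 and 12.3 FPKM in WT 1 and WT 2 and 10.8 and 10.4 in promoter KO 1 and promoter KO 2. The nearest after it was *Foxj2*, a forkhead transcription factor gene, at 18.3 kb. It had 4.34 and 4.62 FPKM in WT 1 and WT 2 and 2.80 and 3.81 in promoter KO 1 and promoter KO 2. Limma called 0 of the 5 other genes, beside 3.58% of all tested genes. At an unadjusted p under 0.05 in limma there were 2 of the 5, *M6pr* and *Phc1*, beside 30.6% of all tested genes. Both were higher in promoter KO, and both were chosen for mention after their values were seen. *Phc1*, a Polycomb gene, had 129 and 128 FPKM in WT 1 and WT 2 and 205 and 165 in promoter KO 1 and promoter KO 2, and limma called it without promoter KO 2 (Benjamini-Hochberg adjusted p = 0.0404, against 0.0614 with all samples). The median log2 fold change was 0.24 over the 5 others, -0.20 over the 3 of them within 200 kb, 0.13 over the 531 tested genes of chromosome 6 and 0.00 over all tested genes. At an unadjusted p under 0.05 in limma, 119 genes of chromosome 6 were higher and 56 lower, against 1786 and 1863 of all tested genes. The summed FPKM of chromosome 6 was 26525 and 27691 in WT 1 and WT 2, and 33696 and 27485 in promoter KO 1 and promoter KO 2. The part of this shift in the members' values was not tested. Among the members the interval of *Gdf3* lay above 0, those of *Nanog* and *Slc2a3* below it, and that of *Dppa3* included 0.

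**Figure D3:**
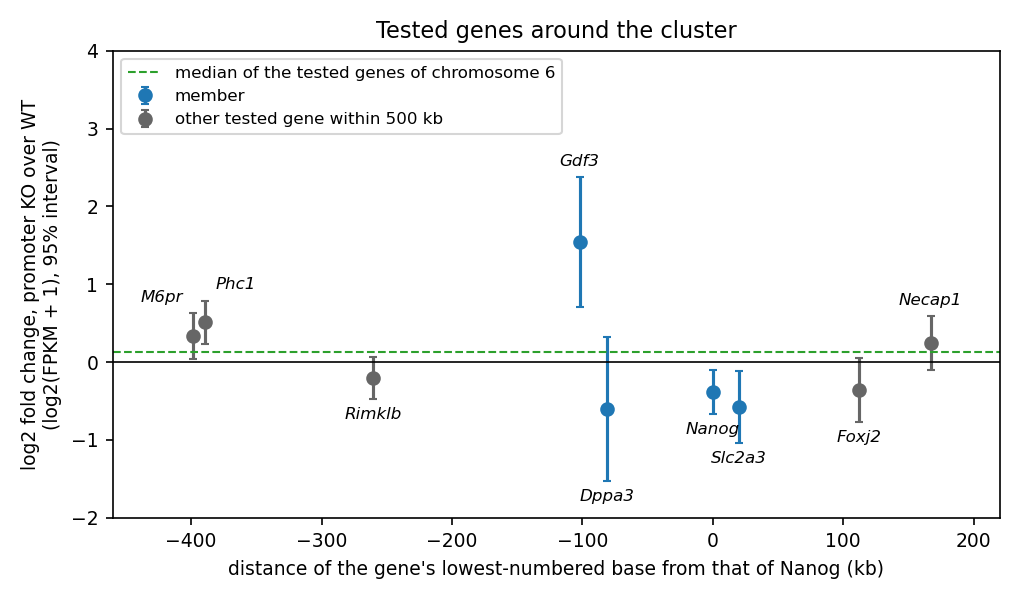
Log2 fold change of promoter KO over WT in log2(FPKM + 1), with 95% intervals from limma, against the distance in kb of each tested gene's lowest-numbered base from that of *Nanog*, with members in blue, other genes in grey and a dashed line at the median of chromosome 6. *Gdf3*, at 1.54, lies above the other genes, and the intervals of *Nanog* and *Slc2a3* lie below 0.

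Genes of the pathways that the members belong to, and of other cell types, were taken from 12 lists that hold none of the members. Together the lists hold 172 genes, of which 10 are in more than 1 list, and of the 142 tested 21 rose and 21 fell in limma, beside 1.68% and 1.89% of all tested genes, a total that pools pathways and cell types. With no filter on low values, without WT 2 or without promoter KO 1, 0 of them were called, and without the trend in limma 10 were.

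For *Nanog*, the list of 27 pluripotency genes had 26 tested, of which 4 rose and 1 fell, with a median log2 fold change of 0.82 beside 0.00 for all tested genes. The sum of the list was 4218 and 4022 FPKM for WT 1 and WT 2 and 6708 and 5285 for promoter KO 1 and promoter KO 2. *Utf1*, a chromatin factor of ESCs, rose from 262 and 297 FPKM in WT 1 and WT 2 to 828 and 617 in promoter KO 1 and promoter KO 2. *Dnmt3l*, a cofactor of de novo DNA methyltransferases, rose from 62.0 and 54.8 FPKM to 319 and 157, and the nuclear receptor gene *Nr5a2* from 0.596 and 0.842 FPKM to 3.52 and 2.42. *Nr5a2* reached 1 FPKM only in the promoter KO samples, so it passed the filter through the group where it was higher. *Tdgf1*, which encodes Cripto, fell from 415 and 442 FPKM to 273 and 310. *Pou5f1* was the most abundant gene of the list, with 1499 and 1188 FPKM in WT and 1522 and 1545 in promoter KO, and was not called. The ratio of *Nanog* to *Pou5f1* was 0.0933 and 0.0953 in WT 1 and WT 2 and 0.0618 and 0.0639 in promoter KO 1 and promoter KO 2. The value of *Nanog* thus lay on the other side of 0 from the median of the list, and that difference was not tested.

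The list of 14 primed epiblast genes, the state after naive pluripotency, had all 14 tested, of which 3 rose and 3 fell, with a median of 0.12. *Pou3f1*, a POU factor gene, rose from 44.6 and 40.2 FPKM in WT 1 and WT 2 to 88.9 and 87.0 in promoter KO 1 and promoter KO 2, and *Fgf8*, a growth factor gene of the primitive streak, fell from 196 and 213 to 48.9 and 77.7. The most abundant, *Dnmt3b*, had 427 and 296 FPKM in WT and 417 and 447 in promoter KO and was not called.

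For *Slc2a3*, the list of 13 other glucose transporter genes had 4 tested, none of them called, with 2 at an unadjusted p under 0.05 in limma and a median log2 fold change of -0.50. In all 4 the groups did not overlap, with promoter KO the lower, beside 32.4% of all tested genes, and the unadjusted p stands beside the 30.6% given above. The most abundant, *Slc2a1* (GLUT1), had 423 and 583 FPKM in WT 1 and WT 2 and 269 and 339 in promoter KO 1 and promoter KO 2, with a log2 fold change of -0.71 ± 0.18 (SE) and a limma adjusted p of 0.0711 (Benjamini-Hochberg). *Slc2a3* stood to *Slc2a1* at 0.593 and 0.629 in WT 1 and WT 2 and at 0.689 and 0.657 in promoter KO 1 and promoter KO 2. WT 2 was the highest sample of both genes.

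The hypoxia targets, to which glucose transporter genes are often counted, had 15 of 16 tested, of which 0 rose and 6 fell, with a median of -0.98. The sum of the list was 1034 and 1052 FPKM in WT 1 and WT 2 and 401 and 592 in promoter KO 1 and promoter KO 2. *Ankrd37* fell from 15.3 and 14.7 FPKM in WT to 3.56 and 4.40 in promoter KO, and *Ndrg1*, a stress-response gene, from 43.4 and 47.8 to 7.12 and 14.0. The most abundant, *Ddit4*, had 489 and 466 FPKM in WT and 139 and 232 in promoter KO. Whether the values of *Slc2a3* depend on what moved this list was not tested.

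For *Gdf3*, the Nodal and GDF pathway list had 23 of 24 genes tested, of which 2 rose and 2 fell, with a median of -0.13. The ligand gene *Nodal* rose from 75.1 and 62.3 FPKM in WT 1 and WT 2 to 117 and 112 in promoter KO 1 and promoter KO 2, and stood to *Gdf3* at 15.2 and 8.36 in WT 1 and WT 2 and at 4.18 and 8.24 in promoter KO 1 and promoter KO 2. *Smad7*, an inhibitory SMAD, rose from 15.5 and 13.6 FPKM to 32.5 and 24.5, a call lost with either other filter, without the trend and with median centring (limma, Benjamini-Hochberg adjusted p = 0.0460). *Cer1*, a secreted Nodal antagonist, fell from 36.6 and 26.1 FPKM to 7.42 and 8.93. The coreceptor gene *Tdgf1*, given above, was the most abundant of the list and also fell. The most like patterns to that of *Gdf3* among 6531 other tested genes with a mean of at least 10 FPKM were those of *Esrrb*, *Inpp5d* and *Fgf4*, at root mean square differences of 0.07, 0.10 and 0.12 over the 4 samples. These compare each gene's log2(FPKM + 1) deviations from its own mean over the samples, so that the level itself does not count.

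*Esrrb*, an orphan nuclear receptor of naive pluripotency, had 7.10 and 11.3 FPKM in WT 1 and WT 2 and 41.9 and 18.0 in promoter KO 1 and promoter KO 2, so its order of samples was that of *Gdf3*. *Nanog* was most like *Smurf2*, *Acvr2b* and *Psph*, at 0.02 each, *Slc2a3* most like *Glipr2* and *Capn2*, at 0.04 each, and *Dppa3* most like *Cldn4*, *Dusp1* and *Vim*, at 0.05, 0.06 and 0.08. None of these genes of like pattern lies on chromosome 6, which holds 531 of the 11941 tested genes. With so few genes named and so small a share, this says nothing about position.

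For *Dppa3*, the list of DNA methylation genes had all 13 tested, of which 3 rose and 0 fell, with a median of 0.28. *Dnmt3a*, a de novo methyltransferase gene, rose from 28.8 and 23.6 FPKM in WT 1 and WT 2 to 50.6 and 42.9 in promoter KO 1 and promoter KO 2. *Zfp57*, which protects imprints, rose from 19.1 and 24.4 FPKM to 43.1 and 35.5, a call lost with each other pseudocount, filter and scaling tried (limma, Benjamini-Hochberg adjusted p = 0.0493), and *Dnmt3l* is given above. The most abundant, *Trim28*, had 561 and 539 FPKM in WT and 717 and 583 in promoter KO and was not called.

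The germ cell list had 9 of 12 genes tested, of which 0 rose and 2 fell, with a median of -0.02. *Tfap2c*, a germ cell specifier, fell from 9.60 and 16.2 FPKM in WT 1 and WT 2 to 3.87 and 3.83 in promoter KO 1 and promoter KO 2, and *Dnd1*, an RNA-binding factor of germ cells, from 17.3 and 25.3 to 7.19 and 9.22. *Dazl* and *Ddx4* were higher in both promoter KO samples at an unadjusted p under 0.05 in limma, beside 30.6% of all tested genes, and were not called. *Dazl* reached 1 FPKM only in the promoter KO samples, so it passed the filter through them. The most abundant, *Ifitm1*, had 103 and 259 FPKM in WT 1 and WT 2 and 114 and 79.3 in promoter KO 1 and promoter KO 2, so that WT 2 stood above the other samples as it did for *Dppa3*. The sum of the list was 271 and 471 FPKM for WT and 299 and 238 for promoter KO, and its part in the value of *Dppa3* was not tested.

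For *Apobec1*, the editing list had 7 of 10 genes tested, of which 1 rose and 0 fell, with a median of 0.16. *Syncrip*, which encodes an RNA-binding protein, rose from 55.9 and 54.8 FPKM in WT 1 and WT 2 to 75.0 and 75.4 in promoter KO 1 and promoter KO 2, a call lost in the same way (limma, Benjamini-Hochberg adjusted p = 0.0472). *A1cf*, the cofactor of APOBEC1, stayed below the filter. The most abundant, *Ung*, which removes uracil from DNA, had 76.6 and 74.8 FPKM in WT and 93.9 and 76.6 in promoter KO.

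Lists of other cell types that EBs can hold were taken beside the members. Of the 17 mesendoderm genes, all tested, 0 rose and 10 fell, with a median of -1.71, and *T*, the most abundant, had 306 and 448 FPKM in WT 1 and WT 2 and 50.5 and 127 in promoter KO 1 and promoter KO 2 (limma, Benjamini-Hochberg adjusted p = 0.0509). Of 18 extraembryonic endoderm genes 17 were tested, of which 9 rose and 1 fell, with a median of 1.21. Among those that rose, *Cubn* and *Sox7* reached 1 FPKM only in the promoter KO samples, so they passed the filter through them. The sum of that list was 131 and 181 FPKM for WT 1 and WT 2 and 292 and 372 for promoter KO 1 and promoter KO 2, and *Sparc*, the most abundant, rose from 46.0 and 59.3 FPKM to 111 and 134. Of 8 trophoblast genes 4 were tested, with 0 called in limma and a median of -1.08. *Prl3d1* was listed at 0 in every sample and *Elf5* had at most 0.0473 FPKM, in WT 2. *Hand1*, among the 4, reached 1 FPKM only in the WT samples, so the list does not show that such cells were present. At an unadjusted p under 0.05 in limma there were 2 of the 4, beside 30.6% of all tested genes. They were *Krt7*, lower in promoter KO, and *Ascl2*, higher, named after their values were seen. *Cdx2*, the most abundant of these, had 5.77 and 25.4 FPKM in WT 1 and WT 2 and 2.49 and 5.51 in promoter KO 1 and promoter KO 2, with WT 2 the highest as for *Dppa3* and *Slc2a3*. Of 10 neural ectoderm genes 2 were tested, with a median of -0.13. *Tubb3*, the most abundant, rose from 14.5 and 12.3 FPKM to 23.2 and 26.6, while *Nes*, the other, had 21.6 and 24.5 FPKM in WT 1 and WT 2 and 6.94 and 14.7 in promoter KO 1 and promoter KO 2 and was not called. The part of such cells in the values of *Nanog*, *Gdf3*, *Dppa3* and *Slc2a3* was not tested.

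**Figure D4:**
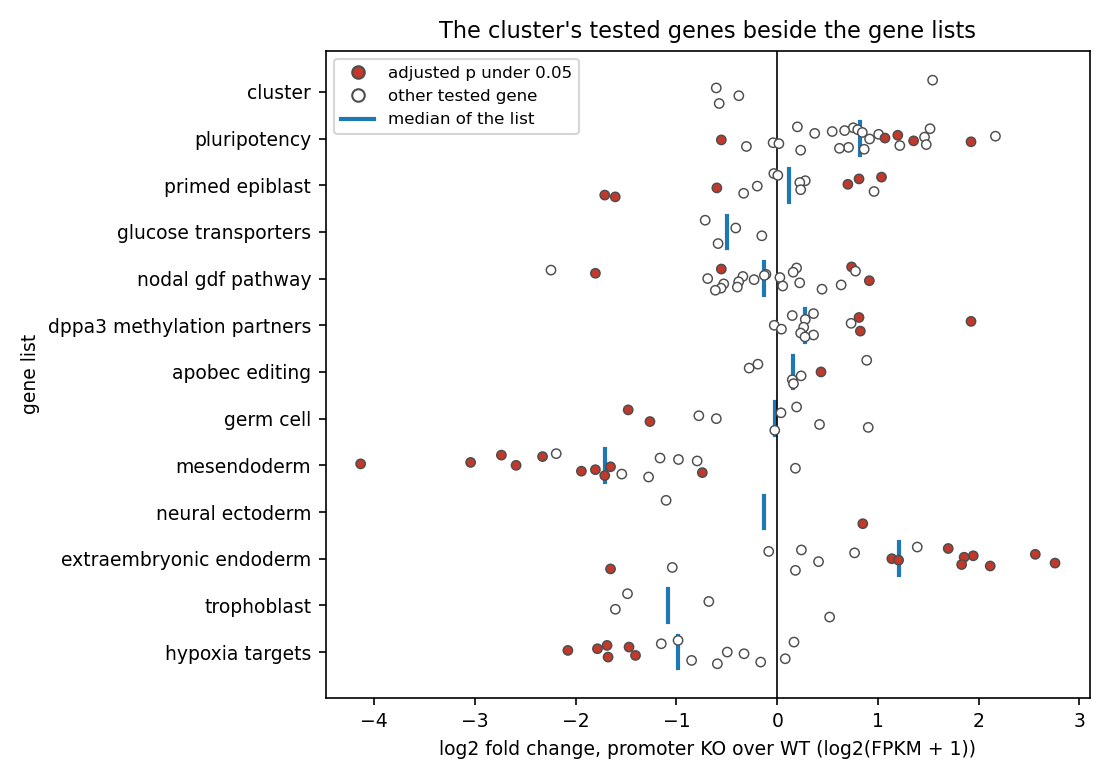
Log2 fold change of promoter KO over WT in log2(FPKM + 1) for the tested genes of the cluster, in the top row, and of each list, with genes called by limma filled and the median of each list as a blue line. In the cluster *Gdf3* lies at 1.54 and the other 3 tested members lie between -0.60 and -0.38, while the medians of the mesendoderm and extraembryonic endoderm lists are -1.71 and 1.21.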

How the data were processed

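RNA-seq of 2 WT and 2 promoter KO day 3 EB samples was used, grouped by the labels. The methods of the study name TopHat, Cufflinks with GENCODE M4 and the unit RPKM, whereas the submitters' processing notes name HISAT2 2.1.0, Cufflinks, Cuffnorm and mm10. The deposited values carry no unit and were taken as FPKM made by the authors. The strand setting is not given in the sources used here. The log2(FPKM + 1) values were tested with limma 3.58.1 (trend) in R 4.3.3, which was tested on simulated data. Coordinates and transcripts are from GENCODE M21, matched by symbol, and copies are transcripts with at least 95% identity over 200 bases (BLAST 2.17.0). Fragments were estimated with an assumed length of 200 bases, chosen after seeing the data. Members and lists were chosen with earlier results of these data known. Named genes were taken from the members, the nearest tested genes on either side, up to 4 called genes and the most abundant gene of each list, and the 3 genes of most like pattern per tested member, of which 1 is not reported here, and a few others were named after their values were seen. Alternatives were the replicate block, pseudocount, filters, variance prior, scaling, windows of 200 and 1000 kb, and each sample left out. Python 3.11.15, numpy 2.4.6, pandas 2.3.3, scipy 1.17.1 and matplotlib 3.10.9 were used.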

Additional observations from a re-analysis of the deposited data

How the results depend on the processing

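*Gdf3*, *Nanog* and *Slc2a3* stayed on their side of 0 under every alternative run, while *Dppa3* came to -0.01 without WT 2, -0.84 with a pseudocount of 0.1 and -1.13 as a ratio of means, from -0.60. With the replicate block, *Slc2a3* (log2 fold change -0.58, limma Benjamini-Hochberg adjusted p = 0.0257) and *Gdf3* (1.54, adjusted p = 0.0478) were called, genes called rose from 427 to 1202, neighbours from 0 to 1 and list genes from 42 to 66, among them 2 of the 4 tested glucose transporter genes, *Slc2a1* (-0.71, adjusted p = 0.0100) and 1 other, against 0 without the block. Same-numbered samples deviated together with a correlation of 0.0348 over genes in 2 pairs, and the labels name no shared batch, so the numbers were not taken as pairs. Genes called were 0 with no filter (4059 at an unadjusted p under 0.05), 203 at a mean of at least 5 FPKM, 82 without the trend (55 higher, 27 lower) and 283 with median centring (157 higher, 126 lower), against 201 higher and 226 lower in the main fit. List genes called were 0 with no filter and 10 without the trend. Leaving out 1 sample gave 0 to 486 genes called, with the lone sample assumed to vary like the other group, 0 to 1 neighbours, 0 to 40 list genes and 1.05 to 2.04 for *Gdf3*. *Apobec1* moved from -0.10 to -0.31 with a pseudocount of 0.1, -0.35 as a ratio of means and -0.23 relative to chromosome 6, and leaving out 1 sample gave -0.21 to 0.02, above 0 without promoter KO 2. The cause was not tested. Median centring and quantile normalization each left 7 of the 8 differences of the tested members outside the WT range, as in the main fit. *Apobec1* had no value under the block, the filter at 5 FPKM or the other scalings, *Dppa3* none under that filter, and the chromosome 6 reference gives no counts. Assumed fragment lengths of 100 and 300 bases, added after seeing the data, left the estimated fragments of *Dppa3* and *Apobec1* within their counting intervals. With no length subtracted *Dppa3* in WT 2 moved from 57.5 to 36.0. *Apobec1* then moved from 21.6 to 11.3 in WT 2 and from 19.6 to 9.71 in promoter KO 1. The other estimates stayed within their intervals. That setting also lowered the estimated depth, to 10500000 effective fragments in WT 2 and 9820000 in promoter KO 1, with WT 1 at 22800000. The effect of the length alone was not tested. Depth limits *Dppa3* and *Apobec1*, with at most about 57.5 fragments in a sample at the main length of 200 bases.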
